A study of Mus musculus with 52 samples.

Results

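The 10 genes described here set the pace of the G1 phase of the cell cycle. They are the D-type cyclins Ccnd1, Ccnd2 and Ccnd3, the kinases Cdk4 and Cdk6 that these cyclins bind, the Cip/Kip inhibitors Cdkn1a, Cdkn1b and Cdkn1c, and the Ink4 inhibitors Cdkn2c and Cdkn2d. They were chosen by gene symbol, and all 10 were present in both count tables, among 49466 genes in all. The libraries are single-cell transcriptomes from the first division of burst-forming unit-erythroid cells (BFU-E), which are early mouse progenitors of red cells, sorted here from C57/Bl6J fetal livers of embryonic day 14.5. Each founder grew alone in a well, either with 100 nM of the synthetic glucocorticoid dexamethasone or untreated. The 2 daughters present after 16 hours were sequenced apart from each other, in 13 dexamethasone and 13 untreated pairs (52 libraries). Strain, tissue, sort and culture time were the same in both groups, and no animal is named, so founders may share a litter and p-values reflect variation among founders and wells only.

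D-type cyclins join Cdk4 or Cdk6 to form the kinases that phosphorylate the retinoblastoma family and so free the E2F transcription factors that start S phase. Ink4 proteins bind Cdk4 and Cdk6 directly and keep the cyclin away, whereas Cip/Kip proteins bind whole cyclin-kinase complexes and mainly block Cdk2. In mice Ccnd3 controls how many divisions late erythroid precursors make, Cdk6 is a kinase of early blood progenitors whose level falls as they mature, and CDKN1C is a known glucocorticoid-induced gene in human cells.

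Values are given as CPM, the usual count scaled to the total of its library, and levels of different genes are compared only as CPM per kilobase of exon length. In untreated pairs 4, 7 and 12 at least 1 daughter held fewer than 100000 counts, and these 3 pairs were left out. The 46 libraries used held 210383 to 4176347 counts in the 13 dexamethasone pairs and 405058 to 5606500 counts in the 10 untreated pairs. Tsc22d3, a glucocorticoid-induced gene, reached 10 CPM in 16 of 26 dexamethasone and 2 of 20 untreated libraries. At least 3 of 11 erythroid markers reached 10 CPM in 21 of 26 dexamethasone and 16 of 20 untreated libraries. At least 3 of 15 granulocyte and monocyte markers did so in 7 of 26 dexamethasone libraries (pairs 6, 7, 10 and 12) and in 5 of 20 untreated libraries (pairs 5, 9 and 10). The summed level of those 15 markers ranged from 0 to 26568 CPM in dexamethasone and from 0.278 to 41617 CPM in untreated libraries. These are called myeloid-marker pairs below. Cell 1 of dexamethasone pair 12 held the fewest counts, 210383, and stands apart for several of the 10 genes, so results are also given without that pair where it matters.

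Both kinases, Ccnd2 and Ccnd3 had reads in every one of the 46 libraries, whereas Ccnd1 and the inhibitors had reads in some cells and none in others. The median level over the 46 libraries was 262 CPM per kb for Cdk4, 57.8 for Cdk6, 34.9 for Ccnd3 and 30.2 CPM per kb for Ccnd2. The inhibitors followed, with medians of 2.50 CPM per kb for Cdkn2d, 1.55 for Cdkn1b and 0.077 CPM per kb for Cdkn1a. The median was 0 for Ccnd1, Cdkn1c and Cdkn2c. Cdk4 was above Cdk6 per kb in 45 of 46 libraries, and Cdk6 was above Ccnd3 in 35 of 46. Further down the order, neighbours changed places more often. Ccnd3 was above Ccnd2 in 25 of 46 libraries, with interquartile ranges of 20.9 to 45.9 and 19.7 to 43.6 CPM per kb. Ccnd2 was above Cdkn2d in 28 of 46 libraries, and Cdkn2d was above Cdkn1b in 25 and equal to it in 3. Cdkn1b was above Cdkn1a in 24 and equal in 5, and Cdkn1a was above Ccnd1 in 24 and equal in 12. Ccnd1 was above Cdkn1c in 14 libraries and equal to it in 30, and Cdkn1c above Cdkn2c in 2 and equal in 42.

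**Figure D1:**
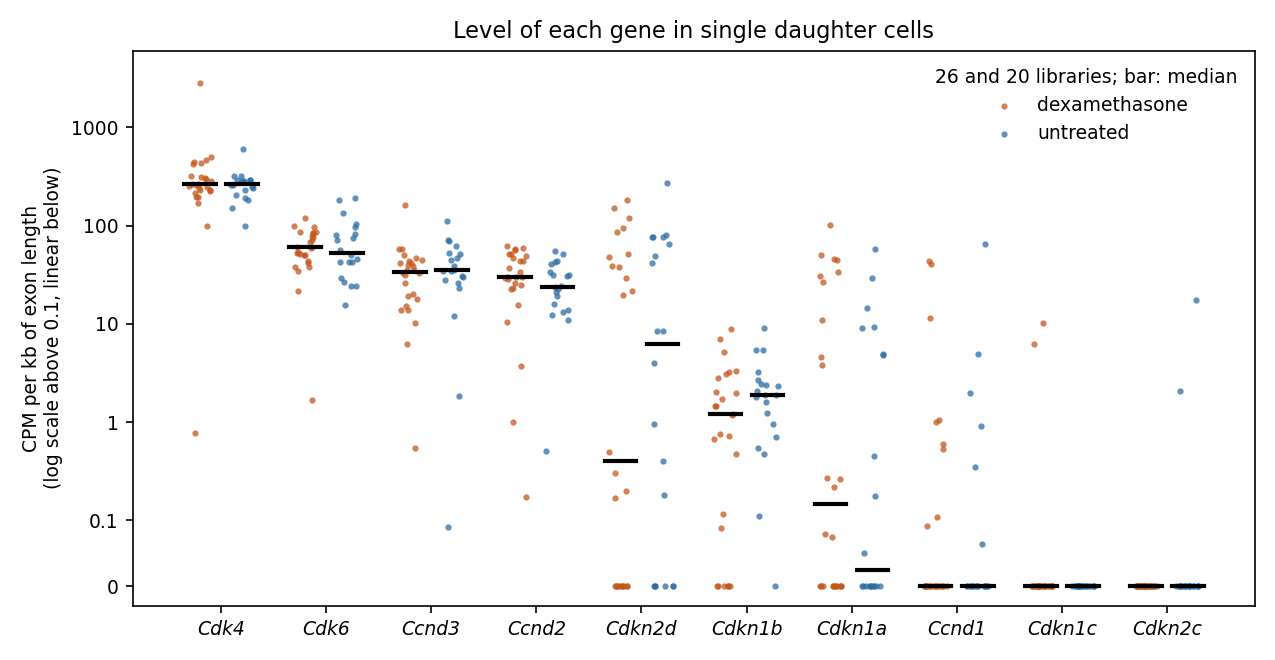
Level of each gene (CPM per kb of exon length, log scale above 0.1 and linear below) in 26 dexamethasone (orange, left) and 20 untreated (blue, right) libraries, with the median of each group as a bar. Cdk4 lies highest with a median of 262 CPM per kb over all 46 libraries, and the points of the inhibitors and of Ccnd1 divide between 0 and levels up to 272 CPM per kb.

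Ccnd2 (ENSMUSG00000000184, GRCm38 chromosome 6 from 127125162 to 127152193, minus strand) encodes cyclin D2. Its level ran from 1.63 CPM over a median of 285 to 578 CPM in dexamethasone libraries, and from 4.75 over 225 to 516 CPM in untreated libraries. The groups overlapped over nearly their whole range. The low end was formed by dexamethasone pair 12, at 9.51 and 1.63 CPM in its daughters, and by cell 1 of untreated pair 9, at 4.75 CPM beside 180.3 CPM in its sister.

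Ccnd3 (ENSMUSG00000034165, chromosome 17 from 47505051 to 47599691, plus strand) encodes cyclin D3. It was measured at 4.75 CPM in the lowest, 298 in the median and 1406 CPM in the highest dexamethasone library, and at 0.792, 306 and 972 CPM in the same ranks of the untreated libraries. The 1406 CPM came from cell 1 of dexamethasone pair 11, whose sister was at 415 CPM. Ccnd3 shares 361 exon bases with Bysl on the other strand. Bysl had reads in 44 of 46 libraries, and the sources used here do not say whether counting used strand, so part of these reads may belong to either gene.

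Ccnd1 (ENSMUSG00000070348, chromosome 7 from 144929931 to 144939925, minus strand), the gene of cyclin D1, was at 0 in most cells. It had a read in 9 of 26 dexamethasone and 6 of 20 untreated libraries, and reached 10 CPM in 3 dexamethasone and 2 untreated libraries. Where it was high, it was high in 1 daughter of the pair. With dexamethasone, cell 2 of pair 6 held 53.9 CPM, cell 1 of pair 7 held 190.5 CPM and cell 1 of pair 11 held 204 CPM, and each of their sisters held 0. Without treatment, cell 1 of pair 8 held 23.3 CPM and cell 1 of pair 10 held 306 CPM, again beside sisters at 0. The gene shares 1100 exon bases with LTO1 on the other strand, which had reads in 20 libraries, 4 of them among the 15 with Ccnd1 reads.

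Together these make the D-type cyclin pool of a cell a mixture of Ccnd2 and Ccnd3 in most libraries. Per kb, Ccnd2 made up a median of 48.6% of the pool in dexamethasone and 41.9% in untreated libraries, and Ccnd3 made up a median of 46.3% in dexamethasone and 56.4% in untreated libraries. Ccnd2 was the largest of the 3 in 15 of 26 dexamethasone and 6 of 20 untreated libraries, and Ccnd3 in 11 dexamethasone and 13 untreated libraries. The share of Ccnd2 ran from 0.302% to 89.9% with dexamethasone and from 10.4% to 86.8% without it. The 0.302% came from cell 2 of dexamethasone pair 12, with 2 reads of Ccnd2. Outside that pair the lowest dexamethasone share was 6.95%, in cell 2 of pair 9. With or without that pair, the spread between cells was far wider than the distance between the medians. Ccnd1 was the largest in 1 library, cell 1 of untreated pair 10, with 61.2% of the pool.

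**Figure D2:**
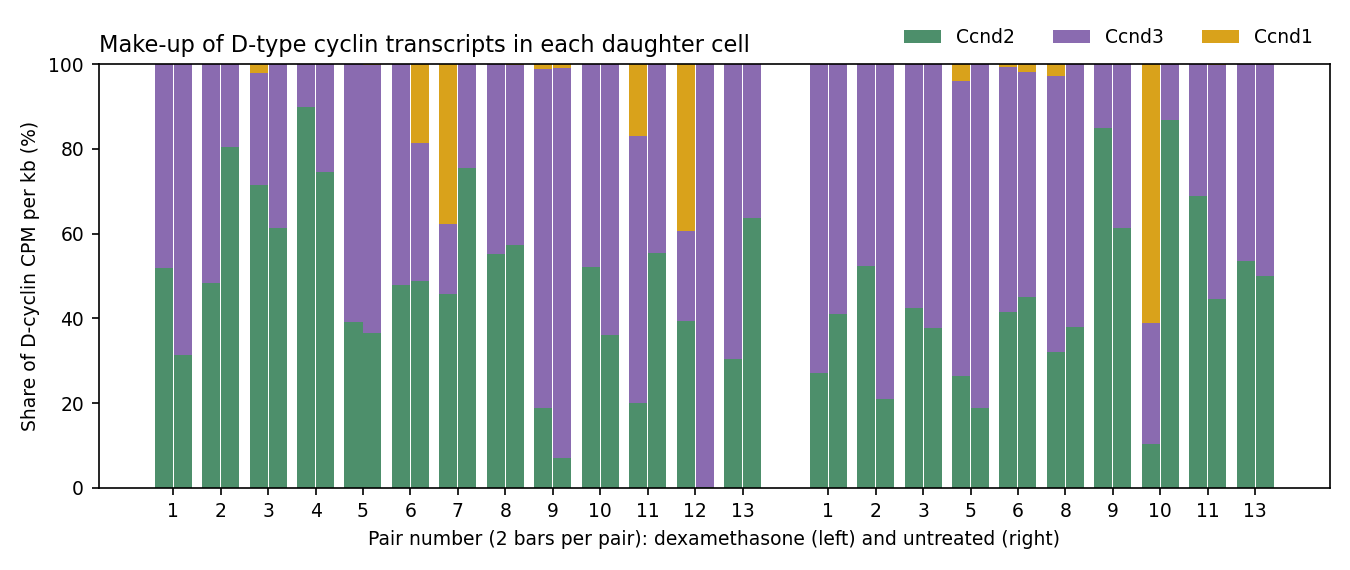
Share of Ccnd2 (green), Ccnd3 (purple) and Ccnd1 (yellow) in the summed CPM per kb of the 3 D-type cyclins (y axis, %), with 1 bar per daughter cell, for dexamethasone pairs (left) and untreated pairs (right). Ccnd2 and Ccnd3 fill most bars in changing proportions, and Ccnd1 exceeds both only in 1 untreated cell, at 61.2%.

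Cdk4 (ENSMUSG00000006728, chromosome 10 from 127063534 to 127067920, plus strand) encodes a kinase whose level was close between most cells, with an interquartile range of 228 to 305 CPM per kb. It stood at 2.54 CPM in the lowest, 850.4 in the median and 9245 CPM in the highest dexamethasone library, against 324, 864 and 1953 CPM in untreated libraries. Without the single highest and lowest library, dexamethasone cells ran from 322 to 1619 CPM. The 2 extremes are cell 1 of pair 12, at 9245 CPM beside 1619 CPM in its sister, and cell 2 of pair 11, with 8 reads or 2.54 CPM beside 1509 CPM in its sister. Cdk4 shares 641 exon bases with Tspan31 on the other strand, which had reads in 42 of 46 libraries.

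Cdk6 (ENSMUSG00000040274, chromosome 5 from 3341485 to 3531008, plus strand) ran from 23.8 CPM over a median of 839.6 to 1685 CPM with dexamethasone, and from 218 over 741 to 2644 CPM without it. All but 1 library were at 218 CPM or more. The exception was again cell 1 of dexamethasone pair 12, with 5 reads or 23.8 CPM beside 1199 CPM in its sister. The 2 highest libraries, at 2644 and 2554 CPM, were cell 1 of untreated pair 9 and cell 2 of untreated pair 10, both from myeloid-marker pairs.

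Among the Cip/Kip inhibitors, Cdkn1b (ENSMUSG00000003031, chromosome 6 from 134920401 to 134925513, plus strand), the gene of Kip1, was read in the most cells, but at a low level. It had at least 1 read in 20 of 26 dexamethasone and 19 of 20 untreated libraries, and its highest library held 131 reads with dexamethasone and 134 without. The level ran from 0 over a median of 5.49 to 40.0 CPM in dexamethasone and from 0 over 8.52 to 41.1 CPM in untreated libraries. It reached 10 CPM in 7 of 26 dexamethasone and 8 of 20 untreated libraries.

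Cdkn1a (ENSMUSG00000023067, chromosome 17 from 29090976 to 29100727, plus strand), the p53 target that encodes Cip1, was at 1.59 CPM or less in some cells and spread from 13.5 to 363 CPM in the others. With dexamethasone 15 of 26 libraries had a read and 10 reached 10 CPM, with a median of 0.528 and a maximum of 363 CPM. Without it 10 of 20 libraries had a read and 7 reached 10 CPM, with a median of 0.0892 and a maximum of 203 CPM. Levels of 100 CPM or more occurred in 6 dexamethasone and 2 untreated libraries.

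Cdkn1c (ENSMUSG00000037664, chromosome 7 from 143458339 to 143461050, minus strand), the gene of Kip2, was found in 2 of the 46 cells, both from dexamethasone. Cell 1 of pair 3 held 34 reads (12.9 CPM) and cell 2 of pair 10, a myeloid-marker pair, held 76 reads (20.8 CPM), and neither sister had a read. In the 20 untreated libraries the count was 0. A limit of 3 reads over that group allows up to 0.054 CPM. By pairs this was 2 of 13 with dexamethasone (15.4%, exact 95% interval 1.92% to 45.4%) and 0 of 10 without (upper limit 30.8%), a difference that Fisher's exact test did not tell from 0 (two-sided p = 0.486). The intervals describe the sampling of pairs. The limit of 3 reads covers counting error only, since reads may not be independent molecules.

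Of the Ink4 inhibitors, Cdkn2d (ENSMUSG00000096472, chromosome 9 from 21288410 to 21291407, minus strand) was likewise at or near 0 in some cells and spread over a wide range in others. It had a read in 16 of 26 dexamethasone libraries and reached 10 CPM in 12, with a median of 0.632 and a maximum of 286 CPM. In untreated libraries it had a read in 14 of 20 and reached 10 CPM in 10, with a median of 9.76 and a maximum of 428 CPM. Cdkn2c (ENSMUSG00000028551, chromosome 4 from 109660876 to 109667189, minus strand) was read in 0 of 26 dexamethasone libraries, where 3 reads over the group would be 0.0439 CPM, and in 2 of 20 untreated libraries. Those were cell 1 of pair 1, with 21 reads (5.57 CPM), and cell 1 of pair 6, with 56 reads (46.6 CPM). Their sisters had none.

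Sister cells were compared next, to set what the 2 daughters of a founder share beside what differs between them. For Ccnd2 the absolute difference between daughters in log2(CPM + 1) averaged 0.67 ± 0.60 (SD, n = 13) with dexamethasone and 0.96 ± 1.50 (SD, n = 10) without, against 1.69 with dexamethasone and 1.31 without between cells of different founders. The larger gap with dexamethasone rested in part on pair 12, which was low in both daughters. Without that pair the means for Ccnd2 were 0.56 between sisters and 0.94 between founders, and over all dexamethasone pairs the medians were 0.71 between sisters and 0.90 between founders. The mean difference between sisters over all 23 pairs was 0.52 times that between founders for Ccnd2, but in untreated pairs alone it was 0.73 times for Ccnd2, 0.72 times for Ccnd3 and 0.73 times for Cdkn1a. For the other genes the mean difference between sisters over all 23 pairs was 0.79 times that between founders for Ccnd3, 0.82 times for Cdk4 and 0.89 times for Cdk6. It was 0.76 times for Cdkn1a, 0.87 times for Cdkn2d, 1.03 times for Ccnd1 and 1.09 times for Cdkn1b. In untreated pairs alone the ratio was 0.999 for Cdk4, 0.80 for Cdk6, 0.91 for Cdkn2d, 0.995 for Ccnd1 and 0.90 for Cdkn1b. These ratios are descriptions and no test was run on them.

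**Figure D3:**
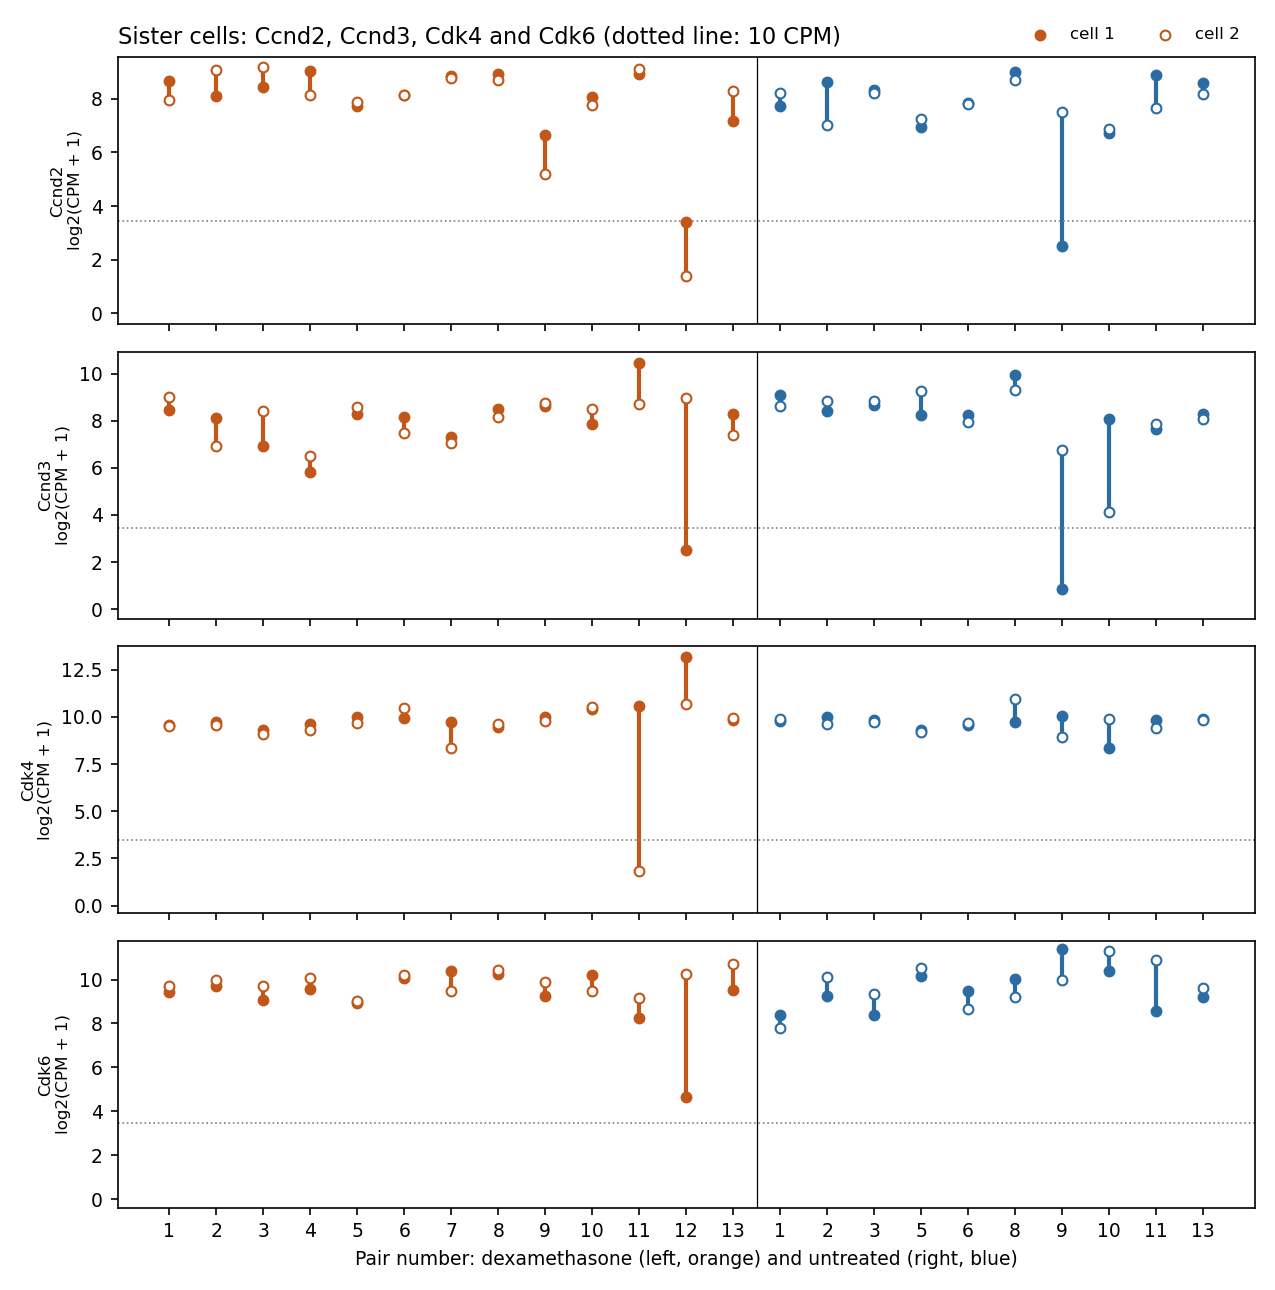
Level of Ccnd2, Ccnd3, Cdk4 and Cdk6 (log2(CPM + 1), 1 panel per gene) in both daughters of each pair, joined by a line, for 13 dexamethasone pairs (orange, left) and 10 untreated pairs (blue, right). Most lines are short, and the longest are in dexamethasone pairs 11 and 12 and untreated pairs 9 and 10.

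Whether the level of a gene goes with its founder was tested with 1 term per pair within each treatment in edgeR's quasi-likelihood test. It called 271 of 8015 genes, which is 3.38%. Of the 10 genes 7 entered, since Ccnd1, Cdkn1c and Cdkn2c had too few reads, and 1 was called, Cdk4 (Benjamini-Hochberg adjusted p = 0.00587). That call rested on dexamethasone pair 12. Without this pair the adjusted p of Cdk4 was 1.00 in edgeR and 145 genes were called. It was also 1.00 without the myeloid-marker pairs, and 0.593 by limma on log2(CPM + 1). Both daughters of a pair lie in the same column of the library plate, so the pair term mixes founder with column. With pairs compared only within a plate column, the adjusted p of Cdk4 was 0.283 in edgeR. Limma called 8.12% of the genes and 1 of the 7, Ccnd2 (adjusted p = 0.00488), which edgeR did not (adjusted p = 0.491). Without pair 12 the limma value for Ccnd2 was 0.164.

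For the inhibitors many pairs had 1 daughter at 10 CPM and the other below. Cdkn1a reached 10 CPM in both daughters of 3 dexamethasone and 2 untreated pairs, in 1 daughter of 4 and 3 pairs, and in neither of 6 and 5. For Cdkn2d the counts were both daughters in 3 dexamethasone and 2 untreated pairs, 1 daughter in 6 and 6, and neither in 4 and 2. In dexamethasone pairs 8, 9 and 10 one daughter held 93.7, 178 and 164 CPM of Cdkn1a and the other 0. In dexamethasone pair 5 the daughters held 109.9 and 119 CPM. In untreated pair 1 one daughter held 121 CPM of Cdkn2d and the other 0, while in untreated pair 2 they held 121 and 102 CPM.

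**Figure D4:**
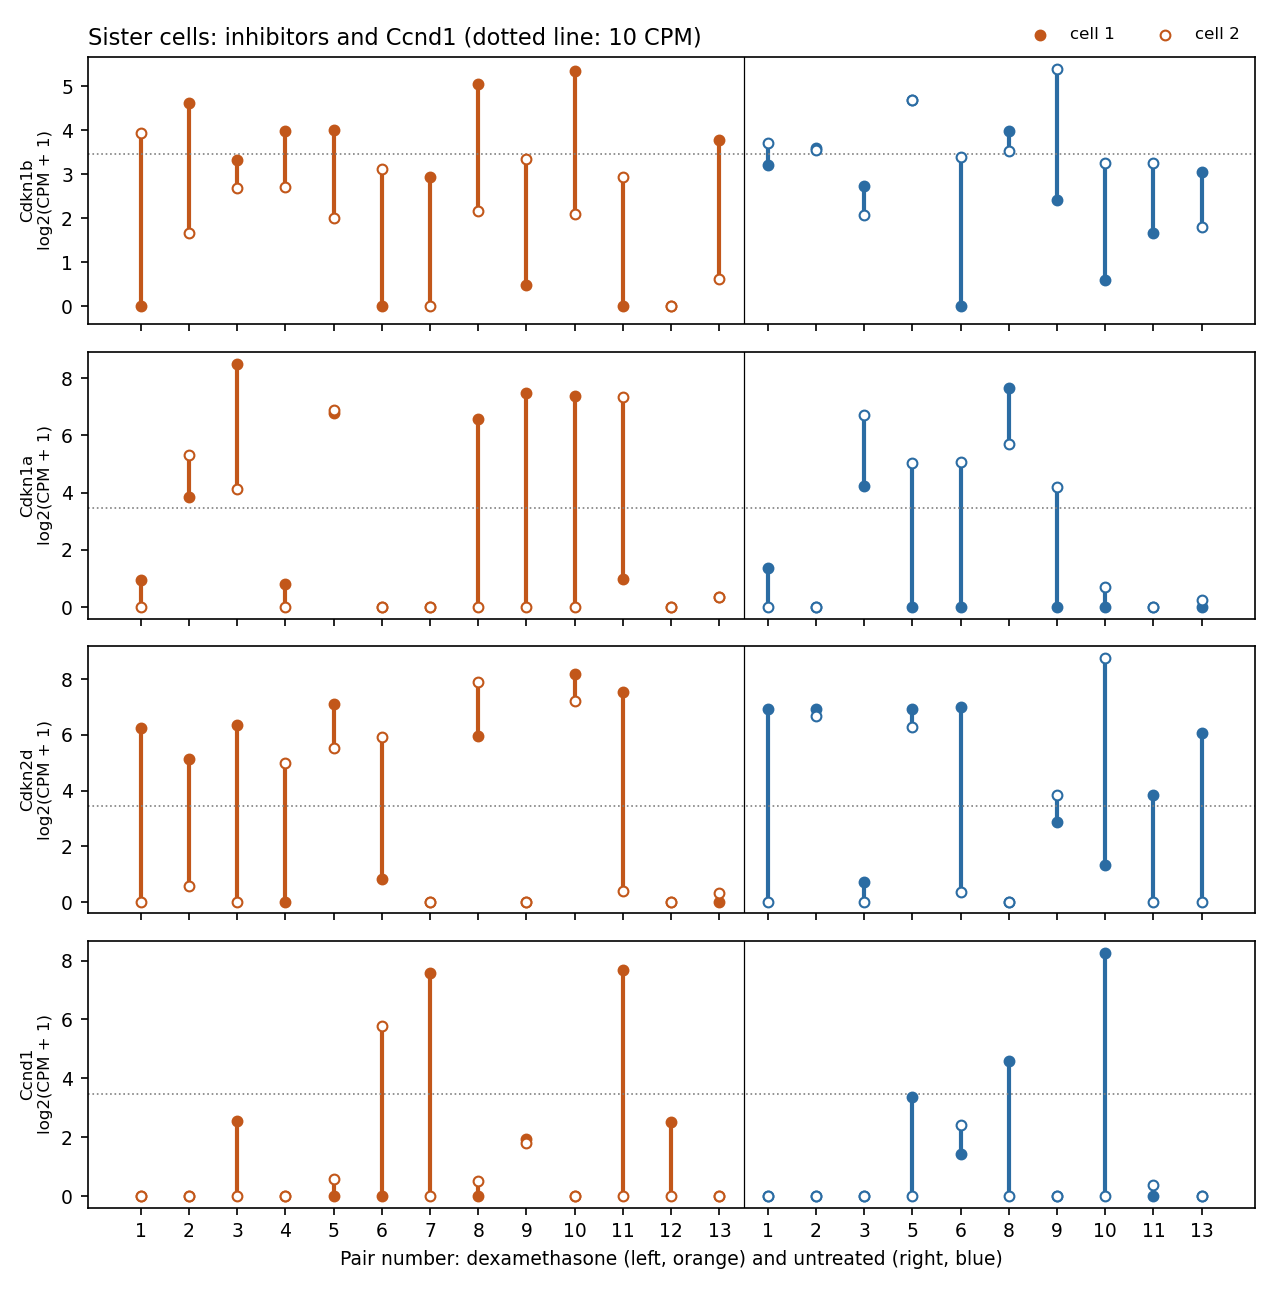
Level of Cdkn1b, Cdkn1a, Cdkn2d and Ccnd1 (log2(CPM + 1), 1 panel per gene) in both daughters of each pair, joined by a line, for 13 dexamethasone pairs (orange, left) and 10 untreated pairs (blue, right), with 10 CPM as a dotted line. For Cdkn1b no dexamethasone pair has both daughters above the line, while 3 untreated pairs do. At 20 CPM both daughters pass in 0 dexamethasone pairs and 1 untreated pair.

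Of the 8 genes tested for it, Cdkn1b had the largest difference between treatments in how far daughters lay apart. In 7 of 13 dexamethasone pairs 1 daughter was at 10 CPM or more, in 6 neither was, and both were in 0. In the untreated pairs 1 daughter was in 2 of 10, neither in 5, and both in 3. With dexamethasone the daughters held 40.0 and 3.28 CPM in pair 10, 32.1 and 3.46 CPM in pair 8, and 23.5 and 2.15 CPM in pair 2. Without it they held 24.7 CPM each in pair 5, 11.1 and 10.8 CPM in pair 2, and 14.7 and 10.6 CPM in pair 8, but 4.36 and 41.1 CPM in pair 9. The contrast in counts is softer at 5 CPM, where both daughters passed in 2 of 13 dexamethasone and 4 of 10 untreated pairs. At 20 CPM both passed in 0 of 13 dexamethasone and 1 of 10 untreated pairs, and 1 daughter alone in 3 and 1. At 1 read or more both passed in 8 of 13 dexamethasone and 9 of 10 untreated pairs.

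On the log2(CPM + 1) scale the absolute difference between daughters for Cdkn1b averaged 2.46 ± 1.15 (SD, n = 13) with dexamethasone and 1.35 ± 1.25 (SD, n = 10) without. The difference of 1.11 had an unadjusted p of 0.0405 in a two-sided permutation test over pairs and did not pass adjustment over 12661 genes (adjusted p = 0.998). Over those genes 0 were called, 557 or 4.4% had an unadjusted p under 0.05, and 243 or 1.92% did so with the larger difference in dexamethasone pairs. Within library plate columns 1 to 4 the difference was 1.63 (8 against 6 pairs, exact permutation p = 0.0293), and within columns 5 to 7 it was 0.33 (5 against 4 pairs, exact permutation p = 0.730). Without the myeloid-marker pairs it was 1.39 (exact permutation p = 0.0255). With all pairs that have 2 libraries with counts it was 0.72 (permutation p = 0.193). Leaving out 1 pair at a time kept it between 0.96 and 1.34, with unadjusted permutation p between 0.0118 and 0.0766. None of the other 7 genes tested had an unadjusted p under 0.05 over the 23 pairs (lowest 0.583, for Cdkn1a). Without the myeloid-marker pairs Ccnd3 had one, with a difference of 0.47 (exact permutation p = 0.0476, adjusted p = 0.991) beside -0.14 over all pairs. Cdk6 had one within plate columns 1 to 4, where daughters differed by 0.39 ± 0.29 (SD, n = 8) with dexamethasone and 0.73 ± 0.22 (SD, n = 6) without (exact permutation p = 0.0363). In columns 5 to 7 its means were 1.82 with dexamethasone and 1.26 without (5 against 4 pairs, exact permutation p = 0.857).

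The comparison of treatments asked which of the genes dexamethasone changed. With daughters summed per pair, 7 of the 10 passed the expression filter of edgeR's quasi-likelihood test, and 0 of 7 were called, beside 0 of 7190 genes or 0%. At an unadjusted p under 0.05 there were 0 of the 7 genes and 71 (0.987%) of all genes. DESeq2 and limma-trend called 0 genes as well, with 173 and 304 at an unadjusted p under 0.05. Tsc22d3 was thus not called either, though it reached 10 CPM in 16 of 26 dexamethasone and 2 of 20 untreated libraries. The absence of calls therefore does not show that dexamethasone left the genes unchanged. The 7 log2 fold changes, 3 positive and 4 negative, had a median of -0.02, beside 0.02 over all genes tested.

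Among the cyclins and kinases, Ccnd2 had a log2 fold change of 0.38 ± 0.43 (SE), Ccnd3 of -0.02 ± 0.37, Cdk4 of 0.32 ± 0.26 and Cdk6 of -0.18 ± 0.31 (adjusted p = 1.00 for each in edgeR, 13 against 10 pairs). For Cdk4 the value was 0.06 without dexamethasone pair 12. Without the 7 myeloid-marker pairs Cdk4 was at -0.22 and Cdk6 at 0.28, so neither kept its sign. For Cdk6 leaving out single pairs moved the value between -0.27 and 0.07.

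Among the inhibitors, Cdkn1b had a log2 fold change of -0.46 ± 0.59 (SE), Cdkn1a of 1.16 ± 1.41 and Cdkn2d of -0.28 ± 1.18 (adjusted p = 1.00 for each in edgeR). Cdkn1b was at 0.12 and Cdkn2d at 0.41 without the myeloid-marker pairs. For Cdkn1a the value ran from 0.86 to 2.19 when single pairs were left out. Both Cdkn1a and Cdkn2d were at 0 in many cells, and their standard errors were above 1 on the log2 scale.

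**Figure D5:**
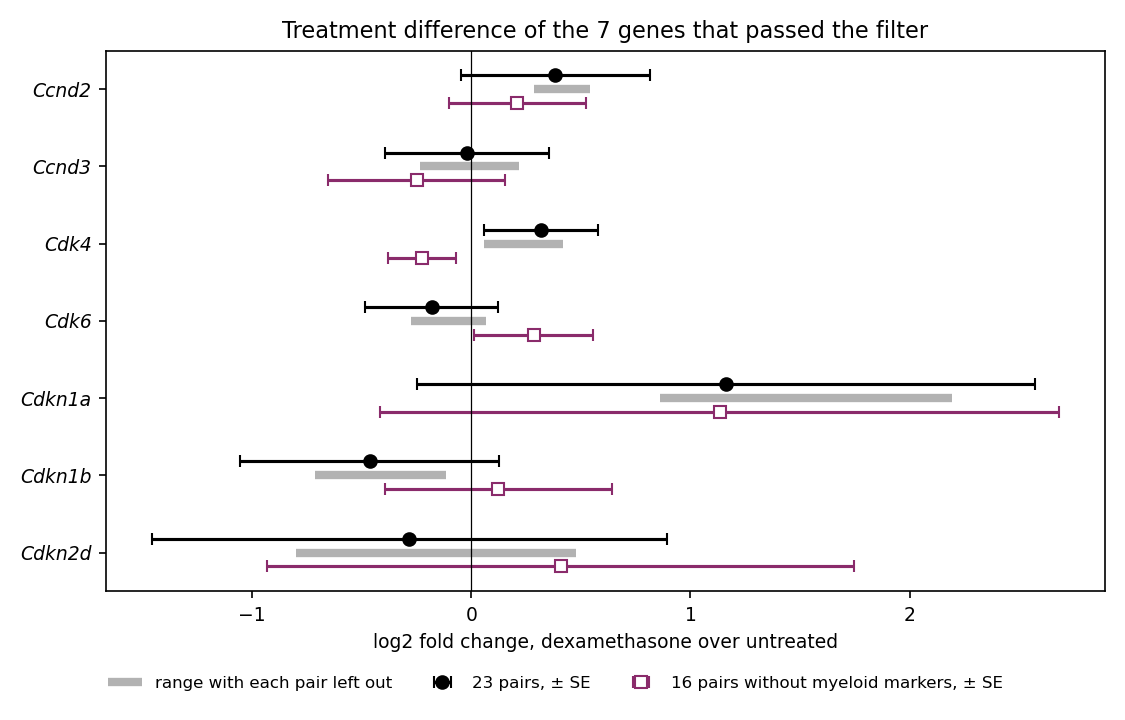
Log2 fold change (x axis, dexamethasone over untreated) of the 7 genes that passed the filter (y axis). Points with bars are the edgeR estimate ± SE over 23 pairs, grey bars the range when each pair is left out, and open squares with bars the estimate ± SE over the 16 pairs without myeloid markers. No estimate is called, and for Cdk4, Cdk6, Cdkn1b and Cdkn2d the 2 estimates lie on different sides of 0.

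The mean log2(CPM + 1) of a pair, which weighs both daughters equally, was also compared for 8 of the genes. Cdkn1b averaged 2.34 ± 1.08 (SD, n = 13) with dexamethasone and 3.03 ± 0.98 (SD, n = 10) without (two-sided permutation p = 0.127, adjusted p = 1.00). Leaving out single pairs kept its difference of -0.69 between -0.84 and -0.50. Cdkn1a averaged 2.60 ± 2.51 with dexamethasone and 2.05 ± 2.37 without (permutation p = 0.593), and Cdkn2d 3.09 ± 2.66 with and 3.42 ± 2.31 without (permutation p = 0.749). Over 12661 genes 0 were called (0%), 565 or 4.46% had an unadjusted p under 0.05, and for 0 genes did the groups lie apart without overlap. None of the 8 had an unadjusted p under 0.05.

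For Ccnd3 the means were close over all pairs, at 7.84 ± 1.04 with dexamethasone and 7.85 ± 1.70 without, but the difference changed sign with plate position. Within columns 1 to 4 the mean was 7.73 ± 0.82 (SD, n = 8) with dexamethasone and 8.78 ± 0.49 without (SD, n = 6, exact permutation p = 0.0127, adjusted p = 0.845). Within columns 5 to 7 it was 8.01 ± 1.42 (SD, n = 5) with dexamethasone and 6.45 ± 1.99 without (SD, n = 4, exact permutation p = 0.198). Untreated pairs 9 and 10, with Ccnd3 at 0.792 and 16.4 CPM in 1 daughter each, lie in columns 5 to 7. Both are also myeloid-marker pairs, so plate position and these markers cannot be told apart for them. The difference between the 2 sets of columns was not tested.

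By detection in a pair, at 10 CPM in at least 1 daughter, the groups did not pass Fisher's exact test for any of the 10 genes. Cdkn1a was detected in 7 of 13 dexamethasone and 5 of 10 untreated pairs (Fisher's exact two-sided p = 1.00), and Cdkn1b in 7 of 13 and 5 of 10 as well. Cdkn2d was detected in 9 of 13 and 8 of 10 pairs (Fisher's exact p = 0.660) and Ccnd1 in 3 of 13 and 2 of 10 (p = 1.00 in the same exact test). The exact 95% intervals are wide, for Cdkn1b 25.1% to 80.8% with dexamethasone and 18.7% to 81.3% without, so a p above the threshold does not show that the groups are the same.

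Of 36 other genes of G1 control, 29 entered the edgeR test of dexamethasone. Their log2 fold changes were above 0 in 14 and below 0 in 15, the median was -0.01 beside 0.02 over all genes, and 0 were called or had an unadjusted p under 0.05. The smallest p-values among positive values belonged to Myc, a transcription factor that drives G1 progression (1.02 ± 0.62, SE), Ccnh, the cyclin of the kinase that activates other cyclin-dependent kinases (0.39 ± 0.40), and Cks1b, a subunit of the Skp2 ubiquitin ligase that marks Cdkn1b protein for destruction (0.35 ± 0.36). Among negative values they belonged to Rbl1, a retinoblastoma family member (-2.29 ± 1.13), Ccne1, cyclin E1 (-1.17 ± 0.93), and E2f3, an E2F factor (-1.33 ± 1.16). In the test of pair terms 3 of 31 were called, beside 3.38% of all genes. They were Myc (adjusted p = 0.00375), Cks1b (0.0272) and Ccne1 (0.0471) in edgeR. Limma gave Myc 0.00294, Cks1b 0.354 and Ccne1 0.00368, and without the myeloid-marker pairs edgeR gave 0.425, 0.299 and 0.0410.

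Levels of Ccnd3, Cdk6, Ccnd2 and Cdk4 are set beside lineage markers here as values without a test. The part of these markers in the treatment comparison was not tested. In libraries with at least 3 granulocyte and monocyte markers Ccnd3 had a median of 177 CPM (n = 7) against 339 CPM (n = 19) in the other dexamethasone libraries, and of 106 CPM (n = 5) against 395 CPM (n = 15) in the other untreated libraries. Cdk6 had medians of 1069 against 836 CPM in the same sets with dexamethasone and of 1347 against 602 CPM without it. For Ccnd2 the medians were 284 against 315 CPM with dexamethasone and 116 against 293 CPM without. Cdk4 went opposite ways in the treatments, with medians of 1359 against 794 CPM with dexamethasone and 623 against 892 CPM without. Over 48 libraries with at least 100000 counts, Ccnd3 had a Pearson correlation of 0.51 with the erythroid factor gene Gata1 (Spearman 0.42), which was 0.50 without dexamethasone pair 12. With the mean of the erythroid markers it had 0.39 (Spearman 0.31), and 0.40 without that pair. Cdk6 had -0.21 with Gata1 (Spearman -0.32), and -0.45 without the pair, and -0.33 with the mean of the erythroid markers (Spearman -0.51), and -0.54 without it. Between Cdk6 and Ccnd3 the value was -0.012 (Spearman -0.32), and -0.53 without it. The libraries share founders and differ in depth, so these are descriptions of 48 cells.

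Proliferation genes were set beside the inhibitors in the same way. Cdkn1b had a Pearson correlation of 0.40 with Mki67, a marker of cycling cells (Spearman 0.45), and of 0.32 without dexamethasone pair 12. This was its highest value among 9 cycle genes. The others lay between -0.010 for Cdc6 and 0.33 for Cdk1, and without that pair between -0.14 for Mcm2 and 0.27 for Top2a. Cdkn1a reached 0.27 at most with any of 9 cycle genes, for Cdk1. Cdkn2d had values of both signs, 0.29 with Cdk1 (Spearman 0.25), 0.27 with the topoisomerase gene Top2a (Spearman 0.25) and -0.29 with the replication licensing gene Cdc6 (Spearman -0.40). Without dexamethasone pair 12 these were 0.24, 0.26 and -0.34. The value for Cdkn2d with Mcm2 went from -0.11 (Spearman -0.30) to -0.46 without that pair. Ccnd1 had -0.49 with Cdk1, the mitotic kinase (Spearman -0.33).

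The genes most like each of the 7 by Pearson correlation over the same 48 libraries, out of 8014, were as follows. Ccnd2 was most like Serinc3 (0.82), Hnrnpa2b1 (0.81) and Cct6a (0.78), values that were 0.66, 0.56 and 0.57 without dexamethasone pair 12. Ccnd3 was most like Srsf11 (0.79), Abcf2 (0.79) and Tagln2 (0.78), with 0.74 to 0.75 without that pair. Among the genes most like Cdk6 were Arglu1 (0.77) and Sub1 (0.76), with 0.59 and 0.54 without it. Cdk4 was most like Tspo (0.65), Mrps21 (0.60) and Naa50 (0.57). For the inhibitors the highest values were lower, at 0.56 for Cdkn1a with Gtse1, followed by Zfp68 (0.52) and Pop1 (0.50). Cdkn1b was most like Pdia4 (0.56), Prdx5 (0.53) and Zfp512b (0.53), and Cdkn2d like Acadl (0.54), Ptpn2 (0.54) and Idh1 (0.52).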

How the data were processed

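The deposited values are read counts for each gene from polyadenylated RNA, not normalized, in 1 table for each treatment, made by the authors with STAR 2.4 and featureCounts on GRCm38 per the submitters' processing notes. The sources used here do not state the library preparation, the strand setting or the treatment of shared reads. Both tables hold 49466 genes and 0 columns were left unused. No library was identical to another.

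The replicate was the pair. Pairs with a library under 100000 counts were left out of the main tests. Dexamethasone was tested on counts summed per pair with edgeR 4.0.16 in R 4.3.3 (TMM, filterByExpr with a minimum count of 10 and total of 15, glmQLFit and glmQLFTest). An SE is the log2 fold change divided by the root of its F statistic. Adjusted p-values are Benjamini-Hochberg over all genes tested, and genes under 0.05 were called. Pair terms were fitted to single libraries for genes that reached 5 counts in 10 or more of them. Means and absolute daughter differences of log2(CPM + 1) were compared by two-sided permutation over pairs for genes with a count in at least 5 libraries. It used 100000 resamples. Every assignment was used instead, as the exact test, where a group had under 10 pairs and at most 100000 assignments existed. Detection was compared by Fisher's exact test, with Clopper-Pearson intervals. Limma 3.58.1 and DESeq2 1.42.0 were alternatives. For daughter differences, plate columns, single pairs left out and the 5 and 20 CPM thresholds were chosen after seeing the data. The edgeR tests were tried on simulated negative binomial counts of fixed dispersion, and the permutation test on simulated normal values. Neither simulation was set to the on-or-off pattern of the sparse genes, so it cannot show how the tests behave for them. Gene locations and exon lengths came from GENCODE mouse release M21, a GRCm38 annotation.

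All 10 genes were named. Of the other G1 genes those with the 3 smallest p-values in each direction and those called in the pair test were named, with the 3 genes most correlated with each member, of which 1 is not reported here. LTO1, Bysl and Tspan31 were named as overlapping genes after their values were seen. The members, lists and left-out pairs were chosen with earlier results of these data known. Plate columns 1 to 4 and 5 to 7 both hold both treatments. Most single columns hold 1 treatment, so column and treatment cannot be fully told apart.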

Additional observations from a re-analysis of the deposited data

Results flagged for a closer look

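In the 10 untreated pairs, 18 sets of pair values of the 10 genes were screened for a pair that stood far from the rest, and 4 were found. Chance flags about 1 in 20 sets of normally distributed values, and these sets hold absolute differences and many zeros, for which the rate was not computed. In untreated pair 9 the daughters differed by 4.98 in log2(CPM + 1) of Ccnd2, where the next pair differed by 1.61. In untreated pair 11 they differed by 2.33 in Cdk6, where the next pair differed by 1.40. In untreated pair 6 Cdkn2c had a pair mean of 2.79 and a daughter difference of 5.57, which both come from the 56 reads in 1 cell. The dexamethasone group holds 13 pairs and was not screened.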

How the results depend on the processing

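With dexamethasone 0 genes were called under every setting tried except 1, leaving out the myeloid-marker pairs, which called 1 gene (Tsc22d3). The test of pair means and of daughter differences called 0 genes under each alternative, and Fisher's exact test on detected pairs 0 of the 10 genes. The pair test moved more. It called 39 genes without the myeloid-marker pairs, 93 with pairs compared within a plate column, 651 with limma, 604 with limma without dexamethasone pair 12, and 3313 with no filter, and 145 to 255 without dexamethasone pair 12 or 11, chosen after seeing the data. With no filter Cdk4 (adjusted p = 9.64e-31), Ccnd1 (0.0187), Cdkn1a (0.0208) and Cdkn2d (0.0286) were called in edgeR's pair test. The number of genes tested without the filter is not given here, so these calls have no share of all genes beside them. The main edgeR fit called 271 of 8015 genes and only Cdk4 of the 10, a call that did not hold without dexamethasone pair 12. Limma gave Cdk4 an adjusted p of 0.593. For Ccnd1 the mean difference between sisters was nonetheless 1.03 times that between founders.

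No treatment value of the 10 genes was called, so a change of sign is a change around 0, and the cause was not tested. Log2 fold changes that turned were, without the myeloid-marker pairs, Cdk4 (-0.22), Cdk6 (0.28), Cdkn1b (0.12) and Cdkn2d (0.41). With all 26 pairs Ccnd3 (0.13) and Cdkn2d (0.061) turned, with 10 counts in 5 pairs Ccnd3 (0.042), and with limma-trend Cdk4 (-0.065). Limma-trend moved the median of all genes to -0.15. With single pairs left out Ccnd3 ran from -0.24 to 0.22, Cdk6 from -0.27 to 0.066 and Cdkn2d from -0.80 to 0.48.

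Differences of pair means turned with all pairs for Ccnd1 (-0.073), Ccnd3 (0.35), Cdk6 (0.023) and Cdkn2d (0.45). Without the myeloid-marker pairs Ccnd2 (-0.021), Cdk6 (0.39) and Cdkn2d (0.48) turned. In plate columns 1 to 4 it was Cdk6 (0.48), Cdkn1a (-0.24) and Cdkn2d (0.052), in columns 5 to 7 Ccnd2 (-0.51), Ccnd3 (1.55) and Cdk4 (0.15), and with a pseudocount of 0.1 Ccnd3 (0.033) and of 10 Cdk4 (0.0026). Leaving out single pairs gave -0.051 to 0.52 for Ccnd1, -0.16 to 0.58 for Ccnd2, -0.46 to 0.19 for Ccnd3, -0.26 to 0.22 for Cdk4, -0.28 to 0.061 for Cdk6 and -0.72 to 0.038 for Cdkn2d.

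Daughter differences turned without the myeloid-marker pairs for Ccnd2 (0.11), Ccnd3 (0.47) and Cdkn2d (0.20), with all pairs for Cdkn2d (0.23), and with a pseudocount of 10 for Ccnd3 (0.040). In plate columns 1 to 4 Ccnd3 (0.19), Cdkn1a (-0.87) and Cdkn2d (1.32) turned, and in columns 5 to 7 Ccnd1 (-0.10) and Cdk6 (0.55). Leaving out single pairs gave -0.12 to 1.07 for Ccnd1, -0.40 to 0.16 for Ccnd2, -0.58 to 0.37 for Ccnd3, -0.0082 to 0.74 for Cdk4, -0.40 to 0.15 for Cdk6 and -0.70 to 0.13 for Cdkn2d. That for Cdkn1b stayed above 0 under each. The share of pairs with Cdkn1b detected differed by -7.69 percentage points at 1 read and by -15.4 at 1 read of 200000, and for Cdkn1a by -3.08 at 1 read.

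Same-numbered pairs of the 2 groups were not treated as matched in the main tests. Their deviations correlated by -0.11 to 0.12, and 1 of 10 was over 0.1. These correlations have no reference to compare with, so they cannot show whether such pairs share more than a number. With the replicate number as a block 0 genes were called and the log2 fold change was 0.11 for Ccnd3 and 2.56 for Cdkn1a. Depth limits the sparse genes, since 3 counts are 14.3 CPM in the shallowest library.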

Other observations

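No cell held more than 3 of the 5 inhibitors at 10 CPM. With dexamethasone 7 of 26 libraries held none, 12 held 1, 2 held 2 and 5 held 3. Among untreated libraries 4 of 20 held none, 8 held 1, 6 held 2 and 2 held 3. Over the 46 libraries Cdkn1a and Cdkn1b were both at 10 CPM in 8, Cdkn1a alone of the pair in 9, Cdkn1b alone in 7 and neither in 22. Both libraries with Cdkn1c also held Cdkn2d at 10 CPM, and 1 of the 2 held Cdkn1a.

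In the pairs left out, 2 untreated libraries were deep enough to give values. Cell 1 of pair 12, with 4204860 counts, held 2138 CPM of Cdk6, 818 CPM of Cdk4, 88.2 CPM of Ccnd2 and 115 CPM of Ccnd3. It also held 28.8 CPM of Cdkn1b from 121 reads. Cell 2 of pair 7, with 225519 counts, held 488 CPM of Cdk6, 1015 CPM of Cdk4, 381 CPM of Ccnd2 and 350.3 CPM of Ccnd3, and 1 read of Cdkn1b. Neither held a read of Ccnd1, Cdkn1c, Cdkn2c or Cdkn2d.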
